A study of Mus musculus with 14 samples.

Results

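Mt1 and Mt2 encode the metallothioneins of most mouse cells, and Tmem163 encodes a membrane protein that moves zinc out of the cytosol. They were chosen by symbol from the deposited table of sorted thymic natural killer T (NKT) cells after the levels of the vehicle and dexamethasone libraries were known. All 3 of the 3 named genes were among the 10303 genes listed, and all 3 were among the 7965 that passed the filter on low counts. The differences between groups for these 3 genes are therefore given as a description, with no test.

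NKT cells are T cells that recognise lipids on the CD1d molecule. Young male wild-type mice gave the thymuses from which the cells were sorted, and their RNA was profiled by MARS-seq, which sequences the 3′ ends of polyadenylated transcripts. The vehicle group received 8% ethanol by injection into the peritoneum and was taken at 3 d (5 libraries). The dexamethasone groups received 200 ug of this synthetic glucocorticoid per 10 g body weight and were taken after 18 h (5 libraries) or 3 d (4 libraries). No vehicle library was taken at 18 h. Every group is wild type, and the labels do not say whether a library is a single mouse or a pool, so the spread between libraries may be technical in part.

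Metallothioneins are small proteins in which cysteines bind zinc and copper ions. Their genes respond to zinc through the transcription factor MTF1, which binds metal response elements, and they are also classical glucocorticoid-induced genes in liver and other tissues. Free zinc is further set by importers of the Slc39 (ZIP) family and by exporters of the Slc30 (ZnT) family. TMEM163 resembles the ZnT proteins in fold and is best known from neurons, where it lies in the plasma membrane and in synaptic vesicles and lysosomes.

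The coding sequences of both metallothionein genes (GENCODE M21, GRCm38, chromosome 8, plus strand) are shown because the cysteine codons, in capitals, are what makes the products metal binders.
Mt1: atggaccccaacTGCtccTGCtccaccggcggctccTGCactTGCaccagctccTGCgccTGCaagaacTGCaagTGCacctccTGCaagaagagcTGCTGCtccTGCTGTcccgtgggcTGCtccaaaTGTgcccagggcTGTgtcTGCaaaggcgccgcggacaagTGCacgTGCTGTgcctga
Mt2: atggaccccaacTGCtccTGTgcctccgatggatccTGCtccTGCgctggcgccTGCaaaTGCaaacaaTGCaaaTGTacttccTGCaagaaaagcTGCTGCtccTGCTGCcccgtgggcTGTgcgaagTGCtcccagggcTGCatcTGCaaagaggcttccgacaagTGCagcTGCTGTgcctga
Each coding sequence holds 186 bases and 61 codons before the stop codon, of which 20 encode cysteine (32.8%). All 20 cysteine codons lie at the same codon numbers in both genes, and 148 of the 186 bases are identical (79.6%). Mt2 (chr8:94172664-94173568) lies 5513 bases upstream of Mt1 (chr8:94179082-94180327) on the same strand. The longest identical run between the transcripts Mt1-201 and Mt2-201 is 20 bases, and it is 10 bases within the last 100 bases, the end that this method reads. Tmem163 lies at chr1:127486546-127679548 on the minus strand. In the annotation Mt2 overlaps an antisense gene and Tmem163 overlaps Mgat5 on the opposite strand. Mgat5 was not among the genes listed. The sources used here do not give strand handling in the counting, and reads of such partners may be included.

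The promoter windows of the metallothionein genes, from 250 bases before to 50 bases after the RefSeq start site (GRCm38.p6), are shown because both genes were higher at 18 h. Capitals mark the metal response element core (TGCACNC or TGCGCNC) and the palindromic glucocorticoid response element (GNACA and TGTNC with 3 bases of any kind between them), searched on both strands.
Mt1, chr8:94178839-94179138, plus strand: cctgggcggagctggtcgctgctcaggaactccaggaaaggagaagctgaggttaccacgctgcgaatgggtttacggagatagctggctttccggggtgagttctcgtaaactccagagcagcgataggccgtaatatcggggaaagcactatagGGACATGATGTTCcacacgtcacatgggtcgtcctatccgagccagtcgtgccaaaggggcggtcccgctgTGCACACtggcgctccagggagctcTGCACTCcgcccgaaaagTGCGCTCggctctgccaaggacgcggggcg
Mt2, chr8:94172368-94172667, plus strand: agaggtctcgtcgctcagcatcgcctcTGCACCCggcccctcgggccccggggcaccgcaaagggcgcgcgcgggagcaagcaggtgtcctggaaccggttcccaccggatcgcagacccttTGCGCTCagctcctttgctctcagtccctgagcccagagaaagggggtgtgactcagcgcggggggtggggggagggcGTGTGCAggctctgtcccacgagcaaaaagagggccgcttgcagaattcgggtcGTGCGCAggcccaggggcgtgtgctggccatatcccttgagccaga
The Mt1 window holds 3 metal response element cores, all on the plus strand, and 1 glucocorticoid response element match at -94 to -82 from the start site. The Mt2 window holds 4 cores, 2 on each strand, and no glucocorticoid response element match. Of 32851 promoter windows in the RefSeq table, 25.7% held at least 1 core, 1.97% held at least 3 and 0.517% held at least 4. The glucocorticoid response element letters were in 156 windows (0.475%). The antioxidant response element (TGACNNNGC), the site of the factor NRF2, was found once in the Mt2 window, which does not overlap the other motifs, and in 12.4% of all windows. The Tmem163 window held none of the 3 motifs, and its RefSeq start site lies inside the GENCODE gene, downstream of the GENCODE start. The Mt2 RefSeq start site lies 46 bases upstream of the GENCODE start. A match is a run of letters and not a measured site, and elements outside these windows were not searched.

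**Figure D1:**
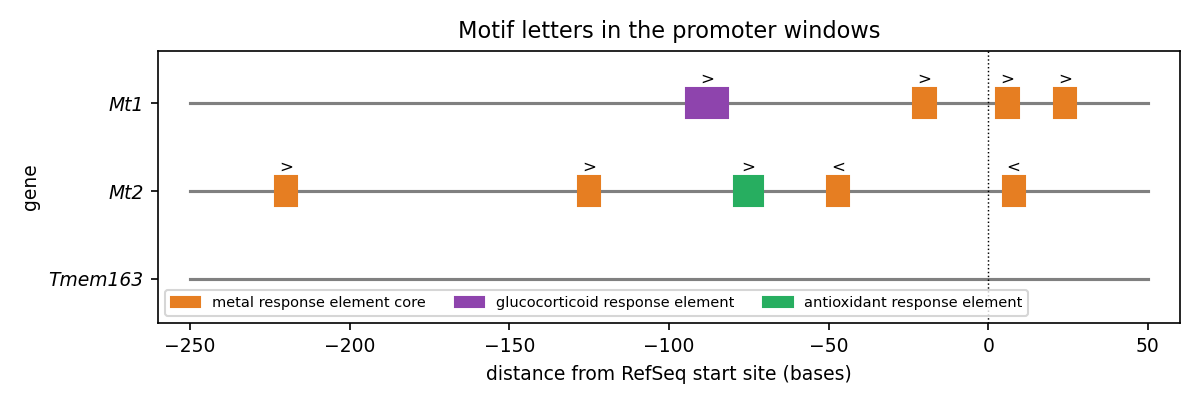
Motif letters found in the promoter windows of Mt1, Mt2 and Tmem163, by distance from the RefSeq start site in bases, with arrowheads for the strand relative to the gene. The Mt1 window holds 3 metal response element cores and 1 glucocorticoid response element, the Mt2 window holds 4 cores and 1 antioxidant response element, and the Tmem163 window holds none.

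Library totals ranged from 975704 to 2201035 counts, so that 1 count was worth 0.468 to 1.10 CPM (counts scaled to a common library size, after TMM scaling). All 10 of 10 NKT and T cell markers were detected in every group. Cd8b1, a coreceptor subunit of conventional T cells and immature thymocytes, was at 9.37 to 70.7 CPM in 12 libraries, but stood at 1002 and 644 CPM in replicates 2 and 3 of the 18 h group. The glucocorticoid-induced gene Tsc22d3 rose from 30.8 ± 8.47 CPM in vehicle to 384 ± 153 CPM at 18 h and 387 ± 40.9 CPM at 3 d (SD), with log2 fold changes of 3.63 ± 0.28 and 3.64 ± 0.29 (SE) and adjusted p-values of 5.2e-08 and 2.1e-07 by edgeR's quasi-likelihood test with Benjamini-Hochberg adjustment.

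Mt1 stood high at 18 h and nearer its vehicle level at 3 d. In vehicle replicates 1 to 5 it was at 6.05, 8.83, 9.60, 12.1 and 10.7 CPM. In 18 h replicates 1 to 5 it was at 72.2, 56.1, 75.3, 19.7 and 125 CPM, and in 3 d replicates 1 to 4 at 21.1, 16.0, 7.57 and 19.2 CPM. Every 18 h library lay above every vehicle library, while 18 h replicate 4 was the lowest of its group and lay inside the range of the 3 d libraries. The 3 d libraries overlapped vehicle through replicate 3 alone, while replicates 1, 2 and 4 lay above every vehicle library. Group means were 9.45 ± 2.26 CPM in vehicle, 69.6 ± 38.0 CPM at 18 h and 16.0 ± 5.98 CPM at 3 d (SD, n = 5, 5 and 4). The fitted log2 difference was 2.87 ± 0.40 (SE) for 18 h over vehicle, 0.78 ± 0.46 for 3 d over vehicle and -2.09 ± 0.41 for 3 d over 18 h. By group mean, 18 h stood above 3 d and 3 d above vehicle. The 3 d and vehicle ranges overlapped, and no difference was tested. In bulk RNA, a change in how many cells of a type were sorted and a change in RNA per cell cannot be told apart.

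Mt2 followed the same order at a lower count. It had 1, 0, 0, 3 and 0 counts in vehicle replicates 1 to 5, which is at most 1.64 CPM. It had 25, 14, 16, 2 and 51 counts in 18 h replicates 1 to 5, or 20.8, 11.9, 11.7, 0.937 and 34.8 CPM. In 3 d replicates 1 to 4 it had 5, 0, 3 and 2 counts, or 3.30, 0, 2.52 and 1.37 CPM. The 18 h libraries other than replicate 4 lay above all vehicle and 3 d libraries, whereas replicate 4 fell among both. Mt2 passed the filter on low counts through its 18 h libraries alone. Means were 0.430 ± 0.713 CPM in vehicle, 16.0 ± 12.6 CPM at 18 h and 1.80 ± 1.44 CPM at 3 d (SD). Summed over libraries, 108 counts at 18 h against 4 in vehicle gave a ratio of 29.4 (exact 95% interval 11.2 to 110). The ratio of 3 d to vehicle, from 10 and 4 counts, was 3.83 (1.10 to 16.7), and that of 18 h to 3 d was 7.68 (4.02 to 16.5). These intervals cover counting error only and leave out the spread between libraries. The 3 d and vehicle libraries overlapped, and no difference was tested. The vehicle sum rests mostly on replicate 4, which holds 3 of its 4 counts, and without that library the fitted log2 difference of 18 h over vehicle moved from 4.76 ± 0.89 to 6.0 ± 1.11 and that of 3 d over vehicle from 1.77 ± 1.28 to 3.00 ± 1.57.

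Tmem163 showed the opposite pattern and was almost without counts at 18 h. Vehicle replicates 1 to 5 had 32, 19, 34, 44 and 32 counts, or 16.1, 21.0, 17.2, 24.1 and 24.5 CPM. The 18 h replicates 1 to 5 had 0, 1, 0, 1 and 0 counts. The 3 d replicates 1 to 4 had 6, 5, 9 and 8 counts, or 3.96, 4.71, 7.57 and 5.47 CPM. Each vehicle library lay above each 3 d library, and each 3 d library above each 18 h library. Tmem163 passed the filter on low counts only because of its vehicle libraries. Means were 20.6 ± 3.86 CPM in vehicle, 0.264 ± 0.386 CPM at 18 h and 5.43 ± 1.56 CPM at 3 d (SD). A count of 0 allows up to 3 counts, which is 2.49, 2.19 and 2.05 CPM in 18 h replicates 1, 3 and 5. Summed over libraries, 161 vehicle counts against 2 at 18 h gave a ratio of 74.0 (exact 95% interval 20.1 to 616), and 161 against 28 at 3 d gave 3.76 (2.5 to 5.83). The ratio of 3 d to 18 h was 19.7 (4.96 to 170.5). These intervals cover counting error only and leave out the spread between libraries. The fitted log2 difference of 3 d over vehicle was -1.91 ± 0.34 (SE). The comparisons with vehicle share the same 5 vehicle libraries.

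**Figure D2:**
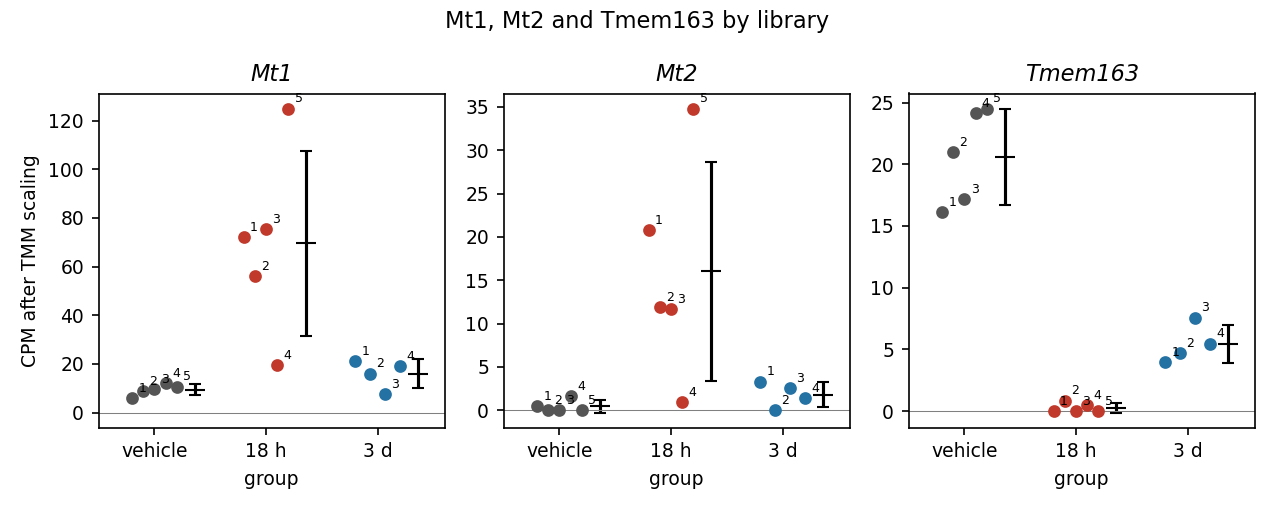
CPM after TMM scaling of Mt1, Mt2 and Tmem163 in each library, numbered by replicate, with the group mean and SD beside the points. Mt1 and Mt2 were highest at 18 h with replicate 4 low, and Tmem163 fell from 16.1 to 24.5 CPM in vehicle to under 1 CPM at 18 h and stood at 3.96 to 7.57 CPM at 3 d.

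The summed level of the 10 NKT and T cell markers was 3355 to 3883 CPM in vehicle, 2004 to 2661 CPM at 18 h and 2911 to 3571 CPM at 3 d, the same order of groups as Tmem163. Zbtb16, which encodes the NKT lineage factor PLZF, was at 41.4 to 81.1 CPM in vehicle, 18.7 to 76.8 CPM at 18 h and 13.9 to 26.4 CPM at 3 d. The part of these markers in the Tmem163 result was not tested. In the Cd8b1-carrying 18 h replicates 2 and 3, Tmem163 had 1 and 0 counts, and in the other 18 h libraries it had 0, 1 and 0.

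Mt2 took a varying share of the metallothionein counts. The method reads transcript ends, so transcript length does not enter this share. The sources used here do not give whether a count is a read or a molecule. In 18 h replicates 1, 2, 3 and 5 it was 22.3%, 17.5%, 13.4% and 21.8%, and in replicate 4, where both genes were lowest, it was 4.55% (Wilson 95% interval 1.26% to 15.1%). Pooled over libraries the share was 5.06% in vehicle (4 of 79 counts, 1.99% to 12.3%), 18.3% at 18 h (108 of 589, 15.4% to 21.7%) and 10.4% at 3 d (10 of 96, 5.76% to 18.1%). The pooled intervals cover counting error only and leave out the spread between libraries. By library the share ran from 4.55% to 22.3% at 18 h and from 0% to 25% at 3 d. Replicate 5 alone held 234 of the 589 counts at 18 h. A difference in share between groups was not tested. Without vehicle replicate 4, which held 3 of the 4 Mt2 counts, the vehicle share was 1.85% (1 of 54). Single vehicle libraries held 8 to 25 metallothionein counts, with shares from 0% to 12.0%, so that the share of a single vehicle library is uncertain.

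Macrophage transcripts moved with Mt1 among some libraries of a group and not others. The 10 of 10 listed macrophage markers summed to 1996, 1029, 1506, 428 and 1896 CPM in 18 h replicates 1 to 5, so the library with least Mt1 also had the lowest sum. In vehicle the sum was 807 to 1650 CPM and was highest in replicate 4, which also had the most Mt1 and Mt2. At 3 d it was 7612, 5215, 2041 and 2965 CPM in replicates 1 to 4, and replicate 3 was lowest for both, but replicate 2 had more macrophage transcripts and less Mt1 than replicate 4. Between groups the order differed, since the 3 d libraries held the most macrophage transcripts, while Mt1 was highest by group mean at 18 h. Per 1000 macrophage marker counts, Mt1 had 7.31 to 11.9 counts in vehicle, 36.2 to 65.9 at 18 h and 2.77 to 6.46 at 3 d, a measure chosen after the values were seen. Its coefficient of variation at 18 h was 21.6%, against 54.5% for Mt1 CPM, with 22.8% against 23.9% in vehicle and 42.0% against 37.4% at 3 d. No macrophage marker was at 0 in any group, and these data do not show which cells held the Mt1 transcripts. Of 7 dendritic cell markers 4 were listed, none at 0 in any group, and they summed to 275 to 531 CPM in vehicle, 217 to 890 CPM at 18 h and 250 to 556 CPM at 3 d. Their sum was lowest in 18 h replicate 4 among the 18 h libraries and highest in replicate 3. Of 5 endothelial markers only Pecam1 was listed, which other blood cells also express, at 41.9 to 48.3 CPM in vehicle, 38.2 to 80.4 CPM at 18 h and 20.2 to 34.9 CPM at 3 d. Of 5 B cell markers 2 were listed and of 7 epithelial markers 2, with sums of at most 14.5 and 9.90 CPM. Of 7 fibroblast markers 2 were listed, with a sum of at most 7.49 CPM. The part of these cells in the metallothionein result was not tested.

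**Figure D3:**
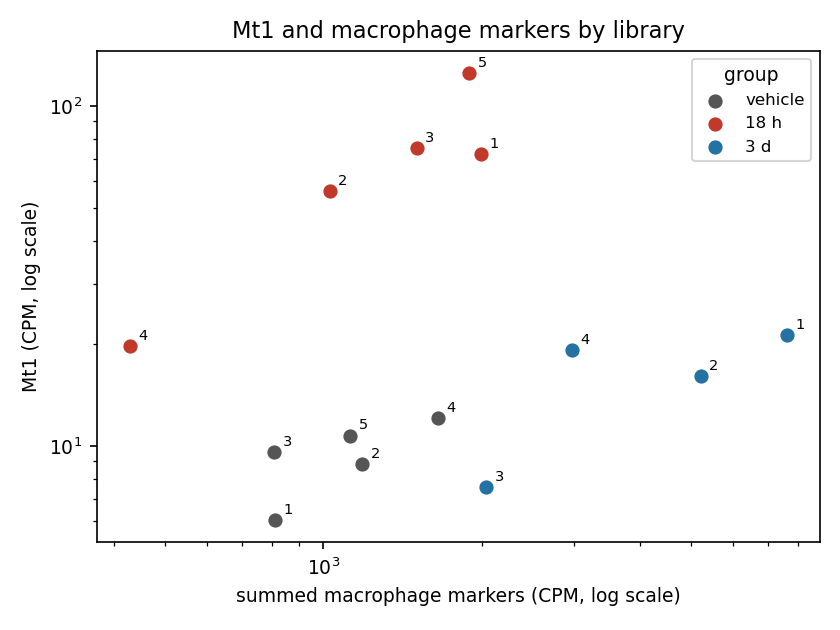
Mt1 against the summed level of 10 macrophage markers in each library, both in CPM on log scales, with replicate numbers. The 18 h libraries lie above the vehicle libraries in Mt1, and their marker sums span a wider range (428 to 1996 CPM against 807 to 1650 CPM). The 3 d libraries lie to the right at 2041 to 7612 CPM with 7.57 to 21.1 CPM of Mt1.

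Likeness of pattern was ranked by Pearson's r of log2 CPM over the 14 libraries, as a description. The libraries share depth, composition and group differences, so high values are common. Mt2 ranked 14th of 7964 tested genes in likeness to Mt1 (r = 0.91, Spearman's rho = 0.75). The 5 genes most like Mt1 among 6566 with at least 10 CPM were Socs1, Rbm33, Ablim1, Ramp3 and Trnp1 (r = 0.93 to 0.95). Socs1, a feedback inhibitor of cytokine receptor signalling, was at 207 ± 18.0 CPM in vehicle, 411 ± 86.6 CPM at 18 h and 243 ± 45.8 CPM at 3 d. Ramp3, an accessory protein of calcitonin family receptors, was at 7.38 ± 4.00, 142 ± 97.5 and 27 ± 9.22 CPM in the same order. By Spearman rank correlation 0 of these 5 were again among the top 5. The 5 most like Mt2 were Osbpl9, Cab39l, Mt1, Ablim1 and Rbm33 (r = 0.88 to 0.92). Those most like Tmem163 were Sema4a, Sh3bgrl3, Ly6g5b, Ctsw and Spin2c (r = 0.94 to 0.97). Ranking by Spearman kept 2 of the 5 for Mt2 and 1 of the 5 for Tmem163. Sema4a, a semaphorin of immune cells, was at 701 ± 103, 186 ± 40.1 and 386 ± 59.4 CPM in vehicle, at 18 h and at 3 d. Ctsw, the protease cathepsin W of cytotoxic lymphocytes, was at 2085 ± 342, 625 ± 58.7 and 1638 ± 106 CPM.

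After group means were removed, the genes most like Mt1 were Cd63, C1qb, C1qc, Tusc1 and Tyrobp (r = 0.87 to 0.92 over the 14 libraries). C1qb and C1qc encode chains of complement C1q made by macrophages, and Tyrobp encodes the adaptor DAP12 of myeloid and natural killer cells. Tyrobp and Cd63 are not among the fixed macrophage markers. Mt2 then ranked 85th in likeness to Mt1 (r = 0.71). Those most like Mt2 were Ccr10, Fcer1g, Herc4, Hars2 and Acoxl (r = 0.83 to 0.88), and those most like Tmem163 were Prpf39, Haus7, Api5, Rcn3 and Angel2 (r = 0.75 to 0.80). Ranking these deviations by Spearman kept 3 of the 5 for Mt1, 1 for Mt2 and 0 for Tmem163. With 0, 1, 0, 1 and 0 counts of Tmem163 at 18 h, its deviations there rest on single counts. Mt2 had 0 counts in 3 vehicle libraries and in 1 library of the 3 d group.

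Other genes of zinc handling moved in both directions at 18 h. Mt3 and Mt4, the remaining mouse metallothioneins, were not listed. At 18 h, 34.3% of all 7965 genes tested passed an adjusted p below 0.05 in edgeR's quasi-likelihood test (17.0% higher and 17.3% lower), and at 3 d 25.9% did (12.1% higher and 13.8% lower). Of 4 tested Slc30 exporters out of 10, 1 rose and none fell at 18 h, with a median log2 fold change of 0.27 (0.01 over all genes). At 3 d none of these 4 passed (median 0.44 against 0.03 over all genes). At an unadjusted p below 0.05 the count at 3 d was 1 (Slc30a5, named after its value was seen), and DESeq2 called 0. Of 9 tested Slc39 importers out of 14, 1 rose and 3 fell at 18 h (median -0.30), and 1 rose and none fell at 3 d (median -0.24).

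Slc30a7, which carries zinc into the Golgi, had a mean of 3.35 ± 1.06 CPM with vehicle and of 8.51 ± 1.36 CPM at 18 h (SD, n = 5 each). It rose by 1.29 ± 0.34 on the log2 scale (SE, adjusted p = 0.0061 by edgeR), and all 18 h libraries lay above all vehicle libraries. Slc39a7 (ZIP7), which releases zinc from the endoplasmic reticulum, rose from 86.4 ± 5.86 to 123 ± 22.2 CPM (0.51 ± 0.15, adjusted p = 0.010 by edgeR). Slc39a13 (ZIP13), a zinc transporter of the Golgi and vesicles, fell from 21.7 ± 5.91 to 10.5 ± 2.5 CPM (-1.04 ± 0.28, adjusted p = 0.0074 by edgeR). These 3 calls held under every alternative run. Slc39a4 (ZIP4), a plasma membrane importer, and Slc39a11 also fell at 18 h (-0.75 ± 0.28 and -1.02 ± 0.38, adjusted p = 0.044 and 0.041 by edgeR). Both calls ended without the Cd8b1-carrying 18 h replicates 2 and 3 (-0.37 and -0.88, adjusted p = 0.24 and 0.14 by edgeR). They also ended when single libraries were left out, with adjusted p up to 0.11 for Slc39a4 (vehicle replicates 1, 2 and 5, 18 h replicates 2, 3 and 5, and 3 d replicate 3) and up to 0.13 for Slc39a11 (vehicle replicates 1, 4 and 5 and 18 h replicates 1, 2, 3 and 5).

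Mtf1, which encodes the zinc sensor that drives metallothionein genes, was low throughout. It was at 2.52, 1.10, 5.56, 2.19 and 3.83 CPM in vehicle replicates 1 to 5 and at 9.13, 6.80, 5.12, 7.96 and 7.51 CPM in the 18 h replicates. The groups overlapped only through vehicle replicate 3 and 18 h replicate 3. It rose by 1.17 ± 0.40 (adjusted p = 0.027 by edgeR), a call lost without vehicle replicate 1, 2 or 4 or 18 h replicate 1 (adjusted p of 0.056 to 0.074). At 3 d it was at 6.60, 8.48, 10.1 and 3.42 CPM and did not pass (1.11 ± 0.43, adjusted p = 0.060), but it passed without vehicle replicate 3 (1.46, adjusted p = 0.018) or 3 d replicate 4 (1.36, adjusted p = 0.029). Slc30a1, the zinc exporter of the plasma membrane that MTF1 also drives, had 2 to 8 counts per library and was below the filter. It was at 1.53 to 5.52 CPM in vehicle, 1.87 to 6.64 CPM at 18 h and 1.98 to 5.05 CPM at 3 d, and the groups overlapped. Slc39a10 was not listed. Crip1, a zinc-binding LIM domain protein on the same list as Mtf1, fell at 18 h by 0.84 ± 0.23 (adjusted p = 0.0081 by edgeR).

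**Figure D4:**
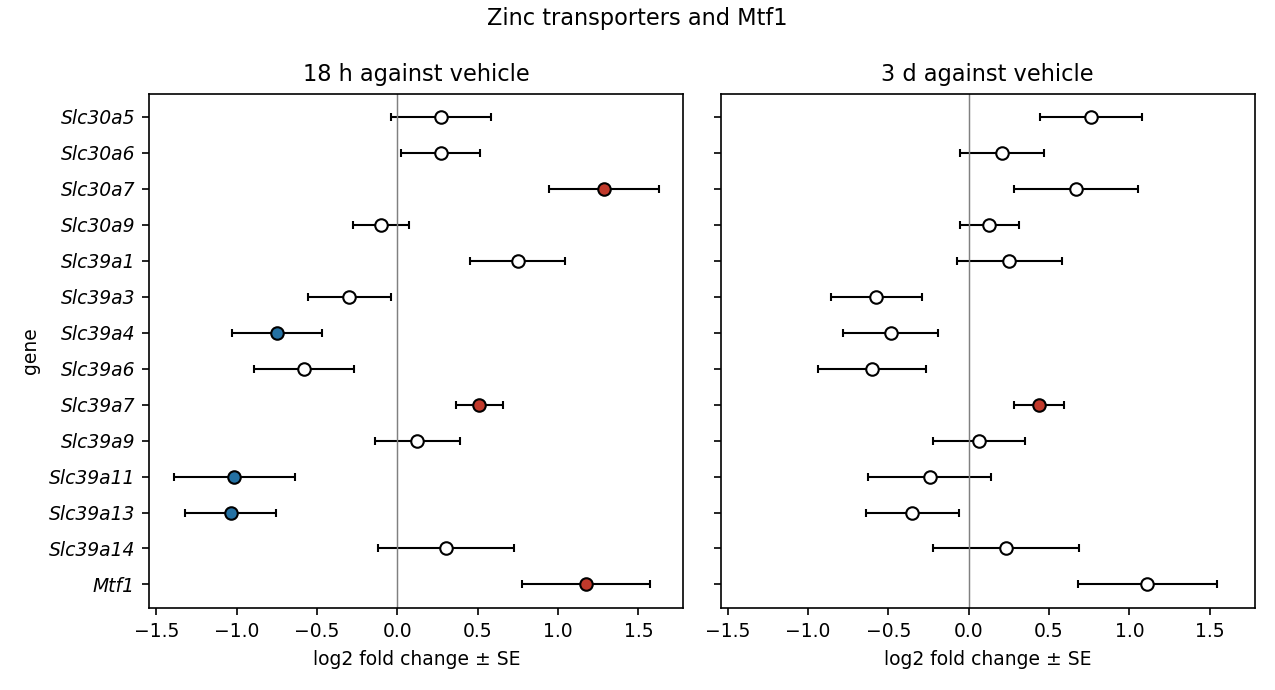
Log2 fold changes with SE of the tested zinc transporters and Mtf1, at 18 h and at 3 d against vehicle, with red points higher, blue points lower and open points not past an adjusted p of 0.05. At 18 h Slc30a7, Slc39a7 and Mtf1 were higher and Slc39a4, Slc39a11 and Slc39a13 lower, and at 3 d Slc39a7 alone passed.

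Between 18 h and 3 d, where 11.7% of all genes passed (4.75% higher and 6.91% lower), none of the 13 tested zinc transporters did, with 1 at an unadjusted p below 0.05 in edgeR (Slc39a13) and 0 called by DESeq2. At 3 d against vehicle Slc39a7 was higher by 0.44 ± 0.16 (adjusted p = 0.041 by edgeR). This call ended without a filter on low counts and without vehicle replicate 1, 2, 4 or 5, 18 h replicate 3 or 3 d replicate 1, 2 or 3 (adjusted p of 0.051 to 0.13).

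Iron genes that passed were higher, and copper genes went both ways. Of 6 tested copper genes, 1 rose and 1 fell at 18 h (33.3% called, against 34.3% of all genes) and 1 rose and 2 fell at 3 d (50%, against 25.9%), with medians of -0.29 and -0.37. The copper gene called higher was Slc31a2, a relative of the copper importer CTR1, with adjusted p = 0.038 at 18 h and 0.0499 at 3 d by edgeR. DESeq2 did not call it at either time (adjusted p = 0.054 and 0.071), and leaving out single libraries ended the calls (adjusted p of up to 0.13 at 18 h, without replicate 5 of that group, and up to 0.24 at 3 d, without 3 d replicate 1). Ccs, the copper chaperone of superoxide dismutase, fell at 3 d from 202 ± 37.4 to 126 ± 14.8 CPM (-0.67 ± 0.17, adjusted p = 0.0075 by edgeR). Of 11 tested iron genes, 5 rose and none fell at 18 h (45.5% called), and 2 rose and none fell at 3 d (18.2%), with medians of 0.47 and 0.26. Over all genes 17.0% were called higher at 18 h and 12.1% at 3 d. Hmox1, described with the oxidant genes, is on both lists. Slc11a1, a divalent metal transporter of phagocytes, rose at 18 h from 0.98 ± 0.953 to 9.88 ± 5.40 CPM (3.16 ± 0.72, adjusted p = 0.0024 by edgeR). Its lowest 18 h library was replicate 4 with 1.41 CPM, the library with least Mt1 and fewest macrophage transcripts. Slc25a28, the mitochondrial iron importer mitoferrin 2, rose from 82.0 ± 12.8 to 126 ± 24.7 CPM (0.62 ± 0.17, adjusted p = 0.0082 by edgeR). The 2 iron genes called at 3 d were Hmox1 and Slc11a1. Both calls ended without 3 d replicate 1 (adjusted p = 0.088 and 0.26 by edgeR). The Slc11a1 call at 3 d was lost in 6 of 20 alternatives. Fbxl5, another iron gene called at 18 h, lost that call in 7 of 21 alternatives.

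Metallothioneins also take part in the defence against oxidants, and genes of that defence went both ways. Of 22 tested glutathione, thioredoxin and NRF2 genes, 5 rose and 6 fell at 18 h (50% called, against 34.3% of all genes). At 3 d, 4 rose and 8 fell (54.5%, against 25.9%), and the medians were -0.08 and -0.09. All genes also went both ways, with 17.0% higher and 17.3% lower at 18 h and 12.1% and 13.8% at 3 d. Txnip, an inhibitor of thioredoxin, rose from 102 ± 21.6 to 839.6 ± 315 CPM at 18 h (3.04 ± 0.25, adjusted p = 3.7e-08 by edgeR) and was at 419 ± 73.3 CPM at 3 d. Txn2, the mitochondrial thioredoxin, fell from 376 ± 52.3 to 225 ± 45.9 CPM (-0.73 ± 0.15, adjusted p = 9.6e-04 by edgeR), and Gpx1, a glutathione peroxidase, fell by 0.63 ± 0.17 (adjusted p = 0.0061 by edgeR). Keap1, the inhibitor of NRF2, rose by 0.77 ± 0.14 at 18 h (adjusted p = 2.4e-04 by edgeR). Gpx4, which reduces lipid peroxides, was higher at 3 d by 0.98 ± 0.21 (adjusted p = 0.0019 by edgeR).

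Hmox1, the haem-degrading enzyme that NRF2 induces, rose from 4.01 ± 1.20 CPM in vehicle to 51.1 ± 30.2 CPM at 18 h (3.60 ± 0.52, adjusted p = 8.3e-05 by edgeR). In 18 h replicates 1 to 5 it was at 93.8, 34, 46.0, 15.5 and 66.2 CPM, all above the vehicle libraries, with replicate 4 again lowest. At 3 d it was at 35.0, 16.0, 6.73 and 10.9 CPM and was higher than vehicle by 2.07 ± 0.58 (adjusted p = 0.016 by edgeR), but not without 3 d replicate 1 (1.40, adjusted p = 0.088). Macrophages are a known source of Hmox1, and the summed macrophage markers of these libraries are given above with Mt1. Their part in the Hmox1 result was not tested.

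**Figure D5:**
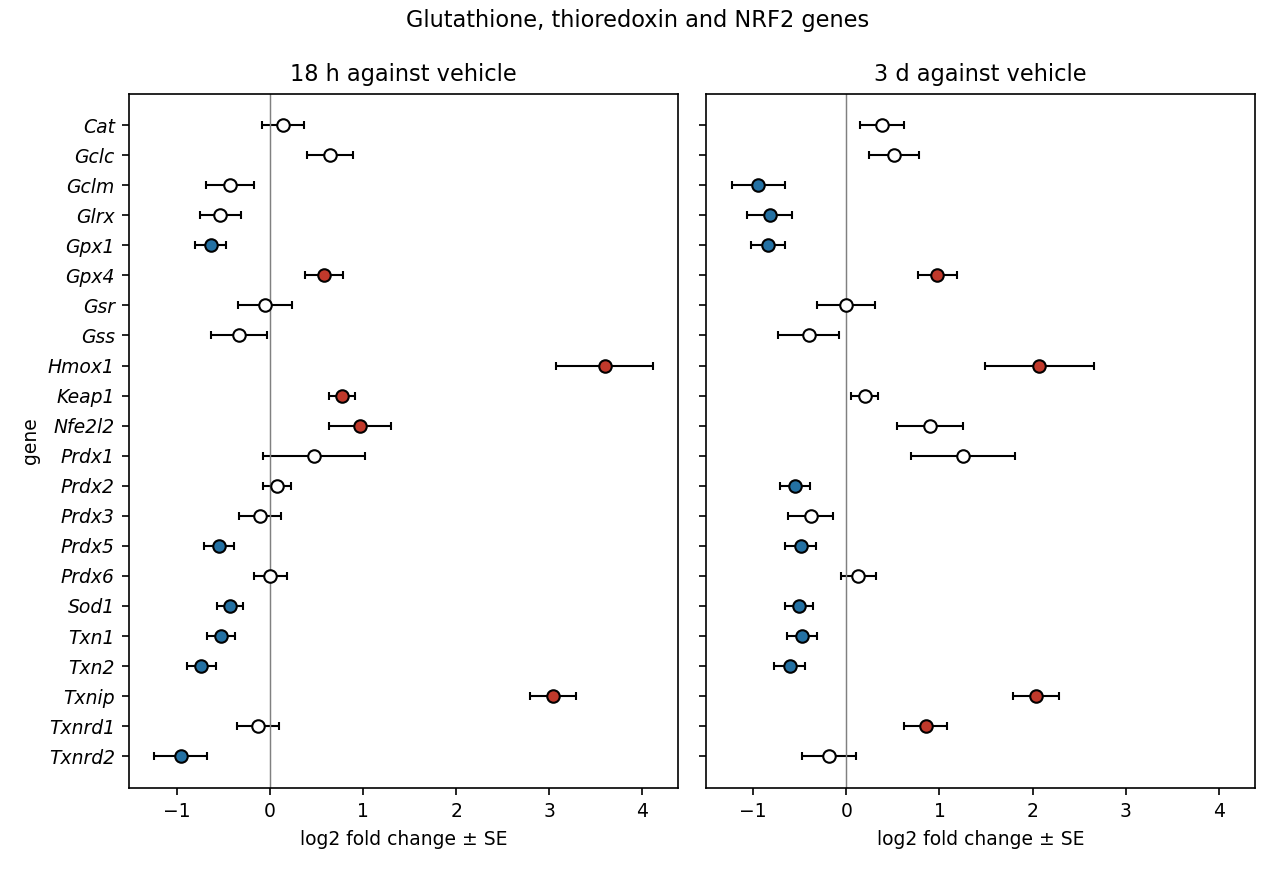
Log2 fold changes with SE of 22 glutathione, thioredoxin and NRF2 genes, at 18 h and at 3 d against vehicle, with red points higher, blue points lower and open points not past an adjusted p of 0.05. Txnip and Hmox1 lie farthest to the right at both times.

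Genes beside the members on the chromosome were compared by position, not by their values. Of 6 tested neighbours of the metallothionein genes out of 9, 1 rose and none fell at 18 h, and 3 rose and none fell at 3 d (medians 0.27 and 0.31). The shares called were 16.7% and 50%, against 34.3% and 25.9% of all genes. Herpud1, an endoplasmic reticulum stress gene of this region, rose by 1.0 ± 0.19 at 18 h and 1.05 ± 0.20 at 3 d (adjusted p = 4.7e-04 and 8.3e-04 by edgeR). Nup93, another neighbour, did not pass (-0.57 ± 0.24 at 18 h, adjusted p = 0.070 by edgeR). Of 6 neighbours of Tmem163 only 2 were tested, and Ccnt2, a cyclin of the transcription elongation factor P-TEFb, rose by 1.36 ± 0.37 at 18 h (adjusted p = 0.0072 by edgeR) while Rab3gap1 did not pass (0.16 ± 0.16, adjusted p = 0.47 by edgeR).

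Of 9 glucocorticoid response genes, 8 rose at 18 h and 6 at 3 d (88.9% and 66.7%). Over all genes 17.0% and 12.1% were called higher. Fkbp5, whose product holds the unliganded glucocorticoid receptor, was at 50.1 ± 9.61 CPM in vehicle, 468 ± 95.5 CPM at 18 h and 179 ± 39.6 CPM at 3 d. Fkbp5 differed between 3 d and 18 h by -1.39 ± 0.18 on the log2 scale (adjusted p = 2.6e-05 by edgeR), as was Ddit4, an inhibitor of mTOR signalling (-1.34 ± 0.16, adjusted p = 8.3e-06 by edgeR). Tsc22d3 did not pass between the times (0.01 ± 0.26, adjusted p = 0.98 by edgeR). The receptor gene Nr3c1 was at 79.4 ± 15, 127 ± 41.3 and 105 ± 15 CPM in the 3 groups and rose at 18 h (0.67 ± 0.20, adjusted p = 0.011 by edgeR). In 18 h replicate 4, where Mt1 and Mt2 were lowest, Tsc22d3 was also lowest of the 18 h libraries at 159 CPM and Ddit4 at 485 CPM, both above every vehicle library, whereas Fkbp5 was second highest there at 536 CPM (range 367 to 575 CPM).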

How the data were processed

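The deposited table held, for each of 14 libraries, raw counts per gene, signal values (counts scaled by size factors) and regularised log2 values by the authors, with p-values of the authors' comparisons, per the file headers. Per the submitters' processing notes, bcl2fastq, cutadapt, STAR 2.5.2b, HTSeq and DESeq2 were used with mm10. The sources used here do not give how molecular identifiers and strand were handled. Only the deposited counts were used. Of 10320 rows, 17 names turned into dates were left out (0.102% to 0.147% of counts). Totals were 975704 to 2201035 counts (median 1422533).

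All 3 groups were fitted together with edgeR 4.0.16 (R 4.3.3; TMM scaling, filterByExpr, robust quasi-likelihood), with Benjamini-Hochberg adjustment over 7965 genes and calls at an adjusted p below 0.05. The SE is the log2 fold change divided by the square root of F. CPM values use TMM library sizes. Ratios of summed counts carry exact conditional binomial 95% intervals and shares carry Wilson intervals, both covering counting error only. Likeness used log2 CPM with a prior count of 2 and genes with at least 10 CPM. Replicates are not stated to be separate mice, so p-values measure only the spread between these samples.

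The members and gene lists were chosen with earlier results of these data known. Named genes were the members, fixed genes of zinc sensing, glucocorticoid response and cell identity, up to 4 called genes per list and comparison by smallest adjusted p, and the 5 most alike genes per member and measure. Alternatives were DESeq2 1.42.0, its size factors, no filter, a replicate block, fits of the compared groups alone, a prior count of 2, Spearman ranking of likeness, leaving out the Cd8b1-carrying pair of libraries, and leaving out each library.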

Additional observations from a re-analysis of the deposited data

Results flagged for a closer look

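Among the genes named from the lists or fixed for cell identity and drug response, 9 differed between the dexamethasone times in a direct test of 3 d against 18 h (edgeR's quasi-likelihood test, adjusted over all genes). Both times share the same vehicle libraries, which this test does not use as a baseline. On the log2 scale Ddit4 differed by -1.34, Fkbp5 by -1.39, Txnip by -1.0 and Keap1 by -0.58, so each was lower at 3 d. The Keap1 call ended without 3 d replicate 4 (adjusted p = 0.052). Hmox1 differed by -1.52 (adjusted p = 0.046), a call that ended in 14 of the alternatives. Prdx2, a peroxiredoxin, differed by -0.63 (adjusted p = 0.012), which ended without 3 d replicate 2 (adjusted p = 0.056). Txnrd1, thioredoxin reductase, was higher at 3 d by 0.98 (adjusted p = 0.0072), which ended without the Cd8b1-carrying 18 h libraries (adjusted p = 0.064). Zbtb16, the NKT lineage gene, differed by -1.49 (adjusted p = 0.0071) and was thus lower at 3 d, which held in every alternative run. Apoe, a macrophage marker here, was higher at 3 d by 2.22 (adjusted p = 0.0052), which ended without the Cd8b1-carrying 18 h libraries (2.09, adjusted p = 0.055). No member had a library far enough from its group to pass Dixon's criterion.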

How the results depend on the processing

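No called result and no difference of the 3 members changed direction under any alternative run that fitted the gene. Mt2 fell below the filter on low counts without the Cd8b1-carrying pair of 18 h libraries. In fits of the compared groups alone, Mt2 was not fitted at 18 h or 3 d against vehicle, nor Tmem163 at 3 d against 18 h. The log2 differences of Mt2 and Tmem163 depend on how low counts are handled. With a prior count of 2, Mt2 at 18 h over vehicle was 3.21, Tmem163 at 18 h over vehicle -3.74 and Tmem163 at 3 d over 18 h 2.05, because a larger prior count shrinks differences from counts near 0. By DESeq2 the Tmem163 values were -6.18 and 4.25. All genes called between 3 d and 18 h numbered 607 in a fit of those groups alone, against 928, and the cause was not tested. Leaving out 1 library at a time, Mt1 at 18 h over vehicle ranged from 2.54 to 3.12, Mt2 from 4.41 to 6.0 and Tmem163 from -6.39 to -5.60. Without 18 h replicate 1, 2, 3 or 5, Mt2 fell below the filter on low counts, so its ranges leave out these runs. Replicate 5 alone held 51 of the 108 Mt2 counts at 18 h. At 3 d over vehicle Mt2 ranged from 1.28 to 3.00, and Tmem163 at 3 d over 18 h from 3.69 to 4.48. Of the 52 tested metal and redox genes, those called higher at 18 h ranged from 7 to 16 (main 13, lowest without vehicle replicate 1 or 4, and 8 without vehicle replicate 2 or 18 h replicate 1). At 3 d they ranged from 3 to 11 (main 7, lowest without 3 d replicate 1, 4 without vehicle replicate 1, 4 or 5, highest without vehicle replicate 3). Those called lower ranged from 7 to 12 at 18 h (main 10) and from 6 to 10 at 3 d (main 9). The main fit called 44.2% of the 52 at 18 h (34.3% of all genes) and 30.8% at 3 d (25.9%). For 3 d against 18 h it called 9.62% (11.7% of all genes). Between 3 d and 18 h those higher ranged from 1 to 3 (main 1, more without 18 h replicate 2 or 4) and those lower from 2 to 4 (main 4, fewest without 3 d replicate 2 or 4). Of 56 calls of named genes, 34 held in every alternative that fitted the gene and 22 were lost in at least 1. Same-numbered libraries did not deviate together (correlations of -0.24 to 0.15 by title number), so the numbers were not taken as pairs. With the title number as a replicate block, Mt1 at 18 h over vehicle was 2.74, Mt2 4.56 and Tmem163 -5.88, and 2489, 1721 and 755 genes were called in the 3 comparisons. Either block ended the Slc39a7 call at 3 d (adjusted p = 0.091 by title number, 0.104 by column number) and both Slc31a2 calls (adjusted p of 0.065 to 0.10). The 3 d libraries carry other numbers in their column names, and that block, chosen after seeing the data, gave 2.69, 4.56 and -5.91 and 2449, 1790 and 713 genes. The depth, with 1 count worth up to 1.10 CPM, limits Mt2 in vehicle and at 3 d and Tmem163 at 18 h.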
